A study of Populus tomentosa with 6 samples.

Results

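The genes described here had a trace of reads in leaves of the Chinese white poplar (Populus tomentosa) at growth temperature and many reads there after heat. They were chosen by their measured values, which are read counts per gene scaled to a library total of 1000000 counts (CPM). A member had more than 10 counts over the 3 control libraries together, a mean below 10 CPM in control, a heat mean of 100 CPM or more, and a lowest heat library above its highest control library. This rule was met by 85 of the 27209 genes in the table, or 0.312%.

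Leaf RNA was sequenced from control plants and from heat-treated plants, with 3 libraries in each group. All plants, control and heat-treated, grew for 75 days in 16 h days at 25 °C and 8 h nights at 20 °C. Fluorescent light was 350 µmol/m2/s, and control plants stayed under these conditions. Heat-treated plants, after 75 days, were taken at the start of the light period to 37 °C within 0.5 h and held for 2 h, then taken to 45 °C within 0.5 h and held for 5 h before sampling. The labels name no genotype, clone or transgene. They do not tie the libraries of a group to different plants or give the hour at which control leaves were taken, so spreads between libraries may be technical and the hour cannot be told apart from heat.

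In plants, as in other organisms, heat unfolds proteins, which frees heat shock transcription factors to switch on genes for chaperones. Small heat shock proteins hold unfolded proteins, the larger chaperone families refold them, and a disaggregase pulls aggregates apart. Many of these genes are known for low expression at growth temperature and strong induction. Whether members are such genes cannot be said here: the table gives identifiers only, 0 of its 27209 identifiers matched the 60139 genes of the reference table used here, and no leaf marker or chaperone list could therefore be applied. Members are accordingly called by their rank in heat, counted from the member with most reads, and 2 of them by identifier. Gene lengths were not used here either, so an order of genes by CPM is an order of reads taken, not of transcript numbers.

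The members went from a trace to a visible part of the leaf transcriptome. Together they held 0.0419%, 0.0478% and 0.0336% of all counts in control libraries 1 to 3, and 7.80%, 6.40% and 6.45% in heat libraries 1 to 3. The control mean was 0.0411% ± 0.00714 and the heat mean 6.88% ± 0.795 (SD, n = 3 each). No test goes with these shares, because the same values chose the genes. In a leaf made of several cell types, a change in cell numbers and a change of RNA per cell cannot be told apart.

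All 85 members were abundant enough to be fitted, and all 85 were called higher in heat by edgeR's quasi-likelihood test (adjusted p below 0.05), where 28.1% of the 17458 tested genes were called higher. Among tested genes 26.9% had every heat library above every control library, as the rule asked of each member. Nothing can be read from these counts, since the rule used that contrast.

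**Figure D1:**
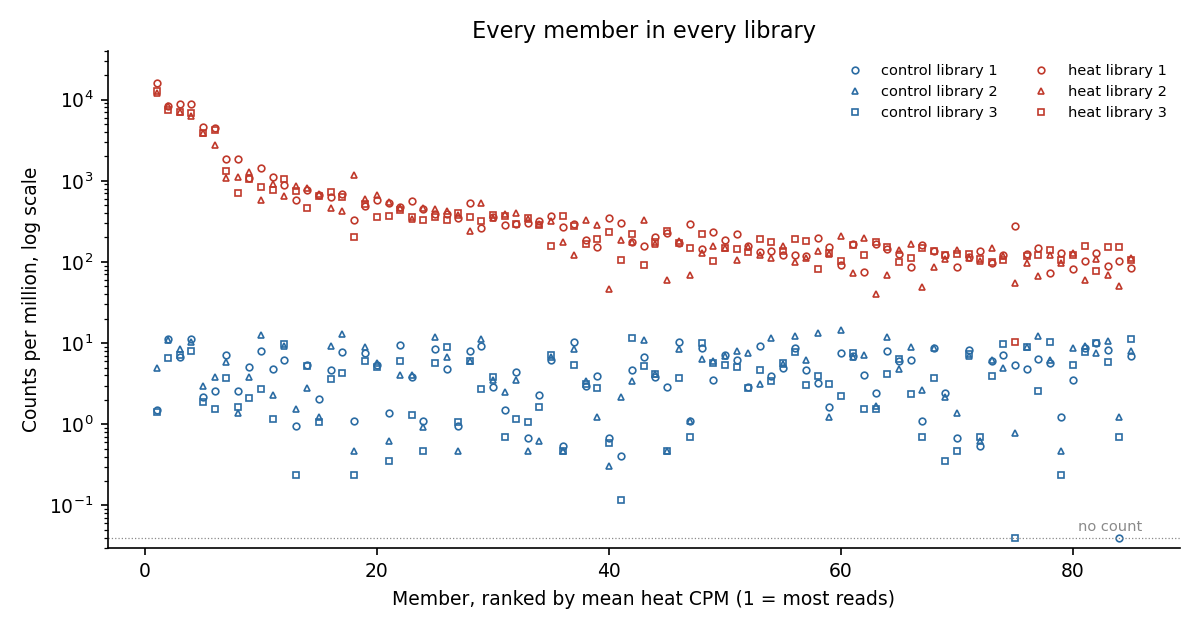
Each of the 85 members in each of the 6 libraries, in CPM on a log axis, ordered by mean heat CPM, with control libraries in blue and heat libraries in red. Control values lie between no count and 14.5 CPM, the heat values of the 6 members at the left stand above a step, and the member at rank 75 has 1 heat value near the control range.

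The first 6 members carried most of the group's reads. Their mean heat levels ran from 13616 CPM at rank 1 to 3818 CPM at rank 6, and the next member stood at 1423 CPM. The step from rank 6 to rank 7 was 2.68-fold, the widest step between neighbouring ranks, and the next widest was 1.78-fold. All 6 were among the 10 genes with most reads in heated leaves. In control leaves, where the rule capped their level, they ranked between 12600 and 16294 of all genes by mean CPM.

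POPTR_0008s06260, the member with most reads in heat, had 11, 32 and 12 counts in control libraries 1 to 3, which are 1.497, 4.95 and 1.41 CPM. In heat libraries 1 to 3 it had 116796, 91222 and 98534 counts, which are 16093, 12059 and 12695 CPM. All heat libraries lay far above the controls, with heat library 1 the highest and control library 2 the highest of the controls. It took 1.36% ± 0.217 of all counts in heat (SD, n = 3) and ranked at 2, 3 and 3 among all genes of heat libraries 1 to 3. The ratio of pooled counts was 5514, with a 95% exact interval of 4236 to 7320 that covers counting error only. The fitted log2 change was 12.58 with a standard error of 0.68.

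POPTR_0003s10860, at rank 5, had the largest ratio among the other members. Its control counts were 16, 19 and 16, or 2.18, 2.94 and 1.88 CPM, and its heat counts 33575, 29004 and 29760, or 4626, 3834 and 3834 CPM. Both groups were tight for this gene, and its control spread (0.235 of the mean) was no wider than counting alone gives (0.244). The pooled ratio was 1791, with a 95% exact interval of 1362 to 2406, and the fitted log2 change was 10.96 with a standard error of 0.39.

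The other 4 of the first 6 differed in their starting level more than in their heat level. The member at rank 2 had 11.2, 10.98 and 6.56 CPM in control and 8431, 8459 and 7398 CPM in heat. The member at rank 3 had 6.81, 8.35 and 7.15 CPM in control and 8722, 7058 and 7050 CPM in heat. The member at rank 4 had 11.2, 10.4 and 7.97 CPM in control and 8901, 6196 and 6798 CPM in heat. Ranks 2 and 4 were close to the upper limit of the rule in control, with means of 9.57 and 9.83 CPM, and rank 4 was the member nearest to it. The control mean at rank 3 was 7.44 CPM. The member at rank 6 started lower, at 2.59, 3.87 and 1.52 CPM, and reached 4530, 2750 and 4174 CPM, with heat library 2 the lowest. Heat over control, as a ratio of mean CPM, was 846, 1023, 742 and 1436 at ranks 2, 3, 4 and 6. Among these heat levels, ranks 2, 3 and 4 overlapped between libraries, as did ranks 5 and 6, so their order within each set is not beyond the spread between libraries.

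Reads in heat were concentrated on a few members. The first 6 held 64.6% ± 1.42 of the members' heat reads and 8.33% ± 0.406 of their control reads (SD, n = 3 each), and the first 20 held 81.3% ± 0.969 of the heat reads. With members ordered by their own control level instead, the 6 with most control reads held 13.6% ± 0.959 of the control reads and the first 20 held 40.4% ± 1.98 (SD, n = 3 each). Control means ran from 0.492 to 9.83 CPM. The rule capped control means and not heat means, so nothing is read from the difference between these divisions. Without the first 6, the other 79 members held 0.0377% ± 0.00639 of all counts in control and 2.43% ± 0.216 in heat (SD, n = 3 each). The share in heat therefore rested for the larger part on 6 genes.

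**Figure D2:**
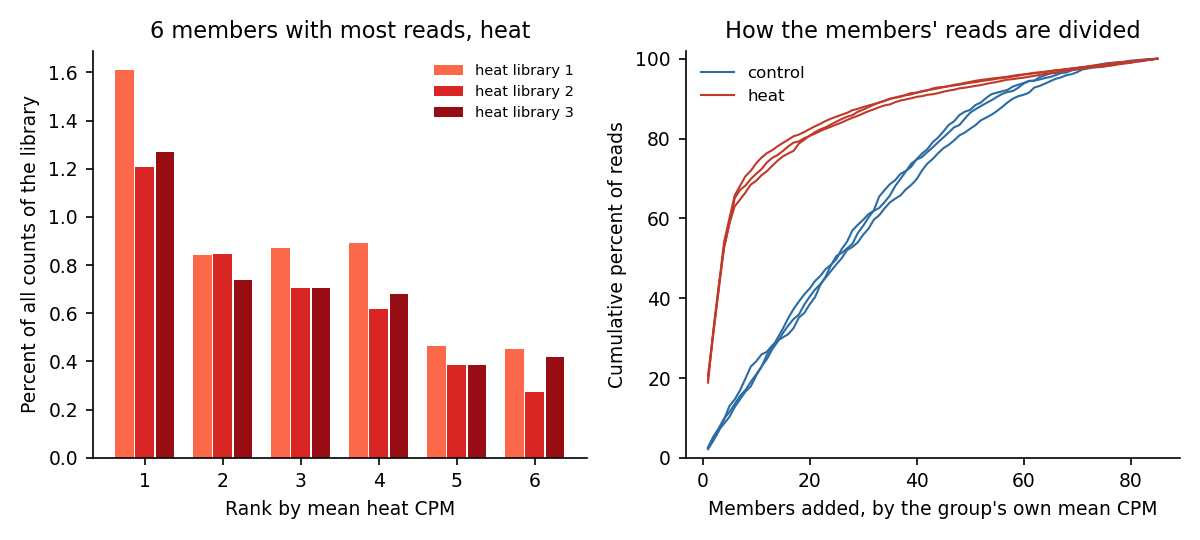
Left, the percent of all counts taken by each of the first 6 members in heat libraries 1 to 3. Right, the cumulative percent of the 85 members' reads when members are added in order of mean CPM, 1 line per library, with control in blue (ordered by control CPM) and heat in red (ordered by heat CPM). After 6 members the heat lines stand at 63.0% to 65.8% and the control lines at 12.7% to 14.6%, where the rule capped control means.

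Below the first 6, heat levels fell off smoothly to the threshold. Between 1000 and 2000 CPM there were 3 members, between 500 and 1000 CPM 11, between 200 and 500 CPM 20, and between 100 and 200 CPM 45. The median heat level of all 85 was 191 CPM, with quartiles of 123 and 457 CPM. By mean CPM in heat, 12 members were among the first 100 genes, 36 among the first 500 and 83 among the first 2000. In control leaves the member with most reads ranked at 12600, so 0 were among the first 2000 there. The rule set a heat minimum and a control limit, and 2001 to 2091 genes reached 100 CPM in a heat library. Places among the first 2000 were thus largely fixed by the rule, and nothing is read from them.

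Control levels were low but measured. A count was found in all 3 control libraries for 83 of the members, and the median member had 35, 37 and 31 counts in control libraries 1 to 3. The sum over the 3 libraries ranged from 11 to 217 counts, with a median of 121, and 13 members had 20 or fewer. Mean control levels were under 1 CPM for 14 members, from 1 to 2 CPM for 8, from 2 to 5 CPM for 17 and from 5 CPM to the limit for 46. Counting error alone gives a median coefficient of variation (SD over the mean) of 0.159 among control libraries, and the observed median was 0.383.

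Heat over control, as a ratio of mean CPM, ranged from 11.3 to 5202 with a median of 69.0 (a median log2 ratio of 6.11). At least 16-fold ratios were found for 74 members, at least 128-fold for 30 and at least 512-fold for 11. Ratios were larger where the control level was lower, as the rule favours. The control level is the denominator, and every member had a heat mean of 100 CPM or more, so nothing is read from this. The 14 members under 1 CPM in control had a median ratio of 423 and a median heat level of 240 CPM, against 24.6 and 159 CPM for the 46 members above 5 CPM. Across the 85 members, control and heat levels were nearly unrelated (Spearman rho = -0.10, Pearson r of log2 CPM = 0.0025), a description of genes that share the same 6 libraries and were cut by thresholds on both axes.

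Library totals were used as the scale for these ratios, and trimmed mean of M-values (TMM) scaling would raise them. The median log2 change of all tested genes was lower by 0.17 under library totals than under TMM scaling, so the median log2 ratio of the members, 6.11 on library totals, was 6.28 on the TMM scale. The smallest log2 ratio of a member, 3.50, was far above this shift. The rule's control limit of 10 CPM and heat minimum of 100 CPM fixed this in advance, so nothing is read from it.

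The order of the members was partly kept between libraries of a group. Spearman's rho of CPM over the 85 members was 0.756, 0.828 and 0.729 between pairs of heat libraries (1 and 2, 1 and 3, 2 and 3), and 0.750, 0.732 and 0.638 between the same pairs of control libraries. These values run over genes that share libraries, within a range the rule cut, and carry no test.

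Heat libraries differed more for the members than for other genes of similar level. The coefficient of variation among the 3 heat libraries had a median of 0.246 over the members and of 0.160 over the 1979 other tested genes of at least 100 CPM in heat. The highest heat library stood at least 2-fold above the lowest for 27 members, 31.8% of them, and for 10.9% of those other genes. By heat level, the medians were 0.291 for 45 members and 0.157 for 1268 other genes between 100 and 200 CPM, and 0.202 and 0.166 (20 and 542 genes) between 200 and 500 CPM. They were 0.236 and 0.163 (11 and 114 genes) between 500 and 1000 CPM, and 0.159 and 0.158 (9 and 55 genes) above 1000 CPM. Genes are not replicates, so these differences carry no test. Counting error gives a median of only 0.0264 for the members, and 3 of the 85 had a spread under 2 times their own counting error.

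For the members, heat libraries 1 and 3 were closer to each other than either was to library 2. Over heat libraries 1 and 3 alone the median coefficient of variation was 0.151 for the members and 0.121 for the other genes. With library 2 it was 0.205 and 0.145 (libraries 1 and 2) or 0.244 and 0.125 (libraries 2 and 3). Values at least 2-fold apart were found for 7.06% of members between libraries 1 and 3, 22.4% between 1 and 2, and 20.0% between 2 and 3. For the other genes these shares were 4.70%, 6.37% and 5.36%, so the pairs differed less there. Of the 27 members at least 2-fold apart in heat, library 2 was the lowest for 16 and the highest for 5, library 1 the lowest for 3 and the highest for 15, and library 3 the lowest for 8 and the highest for 7. Library 2 was thus at either end for 21 of them, library 1 for 18 and library 3 for 15. Why the libraries differ was not tested.

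**Figure D3:**
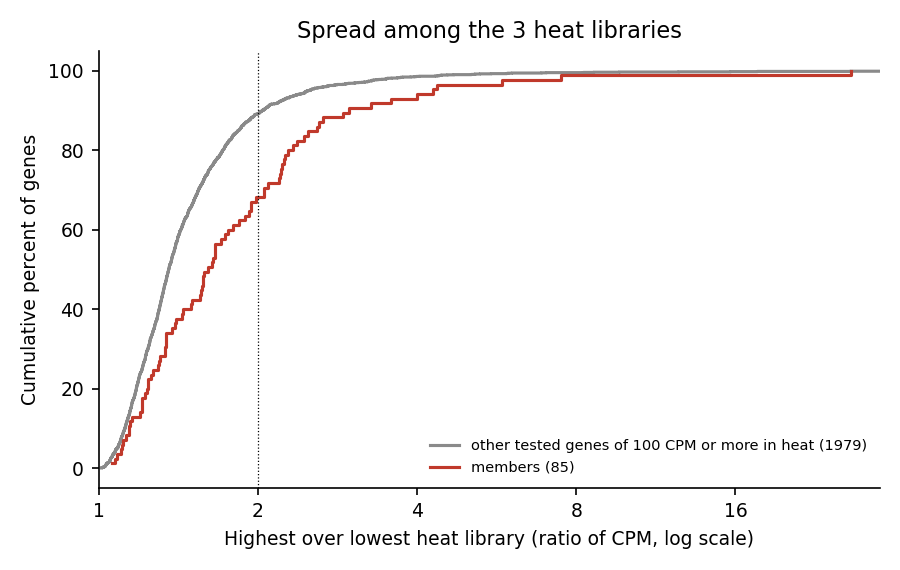
Cumulative percent of genes by the ratio of the highest to the lowest heat library, on a log axis, for the 85 members in red and for 1979 other tested genes of at least 100 CPM in heat in grey. At a ratio of 2 (dotted line), 31.8% of members and 10.9% of the other genes lie to the right.

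In 5 members the highest heat library stood at least 4-fold above the lowest. The member at rank 18 had 328 and 205 CPM in heat libraries 1 and 3 and 1183 CPM in library 2. Rank 40 had 346, 46.1 and 232 CPM in libraries 1 to 3, and rank 47 had 294, 68.6 and 148 CPM. Rank 63 had 167, 40.7 and 178 CPM. Library 2 was thus the high one for 1 of these 4 and the low one for 3, while their control values stayed at or below 2.45 CPM in every library.

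The widest of the 5, at rank 75, had 276, 55.7 and 10.4 CPM in heat libraries 1 to 3 and 5.45, 0.773 and 0 CPM in control libraries 1 to 3. Only heat library 1 reached 100 CPM, and the lowest heat library was 1.92-fold above the highest control library, the narrowest gap of any member. At the other end, the member at rank 15 had 662, 697 and 657 CPM in heat and 2.04, 1.24 and 1.06 CPM in control, and its coefficient of variation in heat, 0.0319, was the lowest of the 85. At least 100 CPM in every heat library was reached by 59 members.

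The members were most often highest in heat library 1 and most often lowest in heat library 2. Of the 85, 36 were highest in heat library 1, 28 in library 2 and 21 in library 3, that is 42.4%, 32.9% and 24.7%. The 1979 other genes of at least 100 CPM were highest there in 31.1%, 34.1% and 34.9% of cases. Groups chosen by similar rules differed in this. The 122 genes of at least 10 CPM in control and at least 8-fold higher in heat were highest in libraries 1 to 3 in 39.3%, 23.8% and 36.9% of cases. Without the 8-fold condition, the 1143 such genes with no overlap were most often highest in library 3 (28.5%, 26.9% and 44.6%). The 24 genes with at most 10 control counts were also most often highest in library 3, with 6, 7 and 11 genes (25.0%, 29.2% and 45.8%) in libraries 1 to 3. Under TMM scaling heat library 1 was the highest for 40 members (47.1%, against 33.7% of the other genes). Heat library 2 was the lowest for 40 members, 47.1%, and for 36.3% of the other genes, and under TMM scaling these shares were 56.5% and 53.4%. Among control libraries, 30 members were highest in library 1, 39 in library 2 and 16 in library 3 (35.3%, 45.9% and 18.8%). The 4580 other tested genes below 10 CPM with more than 10 control counts were highest in these in 18.7%, 53.1% and 28.2% of cases. Under TMM scaling 35 members were highest in control library 1 and 30 in control library 2, so which control library leads depends on the scaling. Control library 3 was the lowest for 49 members (57.6%, against 39.9% of those other genes) and, under TMM scaling, for 47 (55.3%, against 36.6%). None of these differences was tested.

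Genes with neighbouring characters lay just beyond the thresholds. With at most 10 control counts, and otherwise the same heat level and no overlap, there were 24 genes. With at least 10 CPM in control and at least 8-fold higher heat levels there were 122. The 24 near-silent genes held 3.26% ± 0.203 of heat counts, the 85 members 6.88% ± 0.795 and the 122 expressed genes 9.61% ± 0.555 (SD, n = 3 each). In control the expressed genes held 0.515% ± 0.0339, the members 0.0411% ± 0.00714 and the near-silent genes 0.000268% ± 9.00e-05 of counts.

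Set in that order, the members lay between the others in how unevenly reads were divided and how widely heat libraries differed. The 6 genes with most reads held 84.5% of the heat reads of the near-silent genes, 64.7% of those of the members and 39.98% of those of the expressed genes, sets of unequal size. The median coefficient of variation among heat libraries was 0.286, 0.246 and 0.186 in the 3 sets, and 41.7%, 31.8% and 21.3% of their genes were at least 2-fold apart in heat. The members' median heat level, 191 CPM, was below that of both other sets (397 CPM for near-silent and 330 CPM for expressed genes). The 8-fold condition raises the heat level of expressed genes by itself, and without it the 1143 genes of at least 10 CPM in control that met the same heat minimum and did not overlap had a median of 178 CPM, below that of the members. Their quartiles of the coefficient of variation overlapped (0.221 to 0.378, 0.132 to 0.391 and 0.124 to 0.301), and the differences were not tested.

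**Figure D4:**
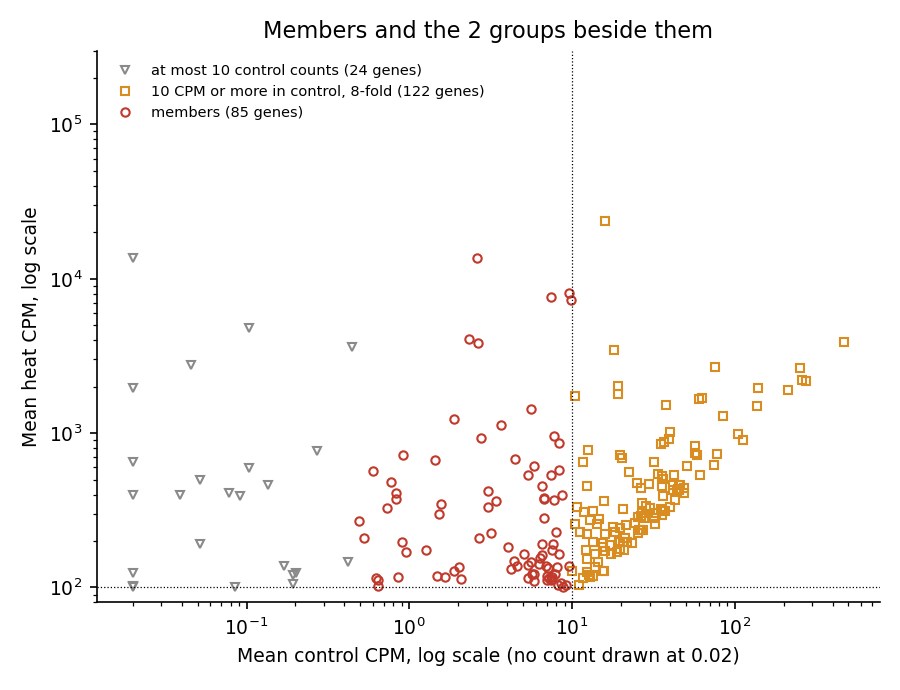
Mean control CPM against mean heat CPM, both on log axes, for the 85 members (red circles), 24 genes with at most 10 control counts (grey triangles) and 122 genes of at least 10 CPM in control and 8-fold higher in heat (orange squares). Dotted lines mark 10 CPM in control and 100 CPM in heat, and points are dense on both sides of the 10 CPM line.

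The thresholds ran through a continuous range of values. The member nearest to the heat minimum had 101 CPM in heat, and the nearest gene outside had 98.7 CPM. The highest control mean inside was 9.83 CPM, and the lowest outside was 10.02 CPM. The fewest control counts inside were 11 and the most outside were 10. The condition of no overlap removed 0 genes that met the other conditions.

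The identifiers carry a number before and after the letter s. Members occurred under all 19 of the numbers 1 to 19 that hold most of the table, and 2 members had a higher number. The counts per number ran from 2 to 9, with 9 of 1938 genes under number 6, 8 of 1446 under number 3, and 6 of 3142 under number 1, the number with most genes. Members were thus spread over the table and not gathered under a few numbers.

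The genes listed just before and just after a member were not chosen by the rule, except that members were left out of them. Of 164 such genes under the same number that were not members, 113 were abundant enough to be tested. Of these, 39 (34.5%) were called higher in heat, against 28.1% of all tested genes, and 27 (23.9%) lower, against 28.7% (edgeR, adjusted p below 0.05). With up to 2 identifiers on each side, 29.5% of 217 tested genes were called higher, close to the share of all tested genes. The median log2 change of the 113 genes was 0.23, and that of all tested genes -0.04. For 47 members no neighbour was called higher, and for 5 both were. Neighbours that were not tested could not be called, and no such counts over all genes are given here. Nothing is therefore read from the 47 and the 5.

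Large rises were found more often beside a member than over the whole table, a difference that was not tested. A fitted log2 change of at least 4, or 16-fold, was called for 13 of the 113 neighbours (11.5%) and for 2.30% of all tested genes. At lower cut-offs the shares lay closer in proportion. A called log2 change of at least 1, 2 and 3 was found for 30.1%, 21.2% and 12.4% of neighbours. For all tested genes these shares were 20.7%, 8.97% and 4.27%. These 13 genes lay beside 12 members. All 13 had every heat library above every control library, against 26.9% of all tested genes. They were picked for a large called rise, which nearly asks for that, so nothing is read from it. Their mean heat level ranged from 3.37 to 197 CPM with a median of 49.96 CPM, and their control mean from no count, for 3 of them, to 13.4 CPM. A heat mean under the 100 CPM of the rule was found for 12 of the 13. Members were left out of the neighbours, which removed most genes with such a rise above that level. Nothing is therefore read from the low heat levels. Without a statement of how reads that match several places were counted, near-identical copies beside each other can share reads, and the part of this in the result was not tested.

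**Figure D5:**
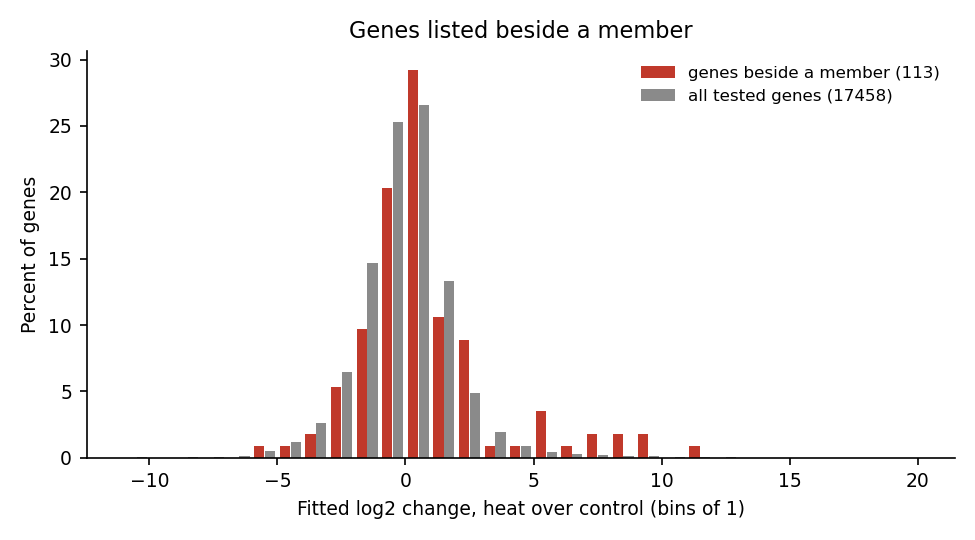
Percent of genes by fitted log2 change of heat over control, in bins of 1, for 113 tested genes listed beside a member (red) and all 17458 tested genes (grey). The centres of both lie near 0, and from 5 to 10 the red bars are taller than the grey ones.

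Members stood beside each other in 2 cases. In one pair the heat levels were 228, 59.4 and 237 CPM (rank 45) and 346, 46.1 and 232 CPM (rank 40) in heat libraries 1 to 3, so both were lowest in library 2. In control they had 21, 3 and 4 counts and 5, 2 and 5 counts. In the other pair, rank 21 had 3912, 4158 and 2836 heat counts from 10, 4 and 3 control counts, and rank 76 had 918, 732 and 921 heat counts from 35, 58 and 76 control counts. Ratios of heat to control were 624 and 15.1, so these neighbours reached the rule from different starting levels. Near-identical copies could share reads in either pair, and these 4 values are uncertain to that extent.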

How the data were processed

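RNA from leaves was sequenced in 6 libraries, 3 per group, and groups were taken from the sample titles. The authors deposited raw read counts per gene, whole numbers that were not scaled or pooled, per the file headers. Tools listed in the submitters' processing notes are HTSeq 0.6.1, TopHat2 2.0.12 and CASAVA 1.8, with no role. For the genome build, gene models, strand setting and handling of multiple matches, the entry is: not given in the sources used here.

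Library totals ranged from 6466647 to 8530622 counts, which limits single control counts of the members. No replicate pair was a repeat, the chi-square per degree of freedom between their counts being 19.1 to 44.1. CPM was computed from library totals. All genes were fitted with edgeR 4.0.16 (R 4.3.3, filterByExpr defaults, TMM, robust quasi-likelihood, group only; standard errors from the fit's F statistic), with Benjamini-Hochberg adjustment over 17458 genes, after a run on simulated data. Exact intervals are 95% Clopper-Pearson and Poisson based. The members, lists and comparisons were chosen with earlier results of these data known. Identifiers were printed for the member with the highest heat mean and, among the others, the one with the largest ratio. Alternatives used DESeq2 1.42.0, limma 3.58.1, other scalings, filters and thresholds, a replicate block, and leaving out each library.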

Additional observations from a re-analysis of the deposited data

How the results depend on the processing

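The number of members depended more on the thresholds than on single libraries. It was 85 as reported, 39 and 156 with control limits of 5 and 20 CPM, and 170 and 40 with heat minimums of 50 and 200 CPM. Leaving out 1 library gave 73 to 86 genes, of which 71 to 81 were among the 85, and TMM scaling gave 92. Leaving out control library 2 and heat library 2, chosen after seeing the data, gave 83 genes, of which 71 were among the 85. The members' share of heat counts, 6.88%, was 6.42% to 7.12% with 1 heat library left out. It was 2.70% without the 20 genes with most reads, 6 of them members, and 2.43% without the 6 first members. The median log2 ratio, 6.11, was 6.28 under TMM, 6.30 under DESeq2 size factors, 6.27 as fitted by edgeR, and 5.96 to 6.16 with 1 library left out. The median coefficient of variation in heat, 0.246, was 0.151 to 0.244 with 1 heat library left out, lowest without library 2.

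All 85 members were called higher as reported and under every alternative fit except 2, edgeR with no filter on low counts and limma voom, which each called 84. The share of all tested genes called higher was 28.1% as reported and 21.9% to 28.5% under the alternatives. The rule used that contrast, so nothing is read from the members' counts. Genes called over the table numbered 9917 as reported, 8111 to 9728 with 1 library left out and 9561 with the replicate block. Nothing in the labels makes the numbers pairs, and the correlation of deviations within each number was 0.0487, 0.0998 and 0.178, not over 0.1 for all 3. Neighbours called higher numbered 39 of 113 tested. With 1 library left out they numbered 34 to 40 of 113 to 115 tested, against 22.7% to 27.0% of all tested genes. Neighbours of at least 16-fold numbered 13, against 2.30% of all tested genes. Under the alternatives, which were added after seeing the data, they numbered 12 to 16 of 113 to 141 tested. The share of all tested genes was then 2.09% to 2.98%. Depth limits control values of members with few counts.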
